A study of Mus musculus with 9 samples.

Results

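Circular RNAs (circRNAs) that were detected in proliferating mouse myoblasts and in no later library were described here. C2C12 is a mouse skeletal muscle myoblast line, and the same line was sampled while proliferating in serum-rich growth medium (day 0) and on days 3 and 6 after a change at confluence to differentiation medium with horse serum, with 3 libraries of total RNA on each day. Nothing in the labels ties the 3 libraries of a day to separate cultures, so the p-values below measure the spread between these libraries, which may be technical. The circRNAs were chosen by their read counts: a circle was taken when its back-splice read count was above 0 in at least 2 of the 3 day 0 libraries and 0 in all 6 later libraries, which held for 706 of the 37751 circRNAs of the deposited table (1.87%). These counts chose the circRNAs, so their own difference between day 0 and later days is a description and was not tested.

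A circRNA forms when a splice donor is joined to an acceptor that lies upstream of it, usually of the same pre-mRNA, and the covalently closed product has no free ends. Because exonucleases do not attack it, a circRNA often outlives the linear mRNA of its gene, and its amount can be diluted as cells divide. Myoblasts leave the cell cycle as they differentiate and fuse, so genes of DNA replication and mitosis are switched off while genes of the contractile apparatus are switched on.

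The 9 libraries held 208787 to 443955 back-splice reads and 7363 to 11119 circRNAs each. Day 0 libraries had 317159, 230183 and 263833 reads. circRNAs of 8 of 13 myotube marker genes, such as Ttn, Neb and Ryr1, summed to 200.5 to 424.7 CPM (back-splice reads scaled to a common library total) at day 0 and to 9332 to 14000 later. Of 7 myoblast markers, Cdh15, Des, Itga7, Pax7 and Vcam1 had a circRNA and Myod1 and Myf5 had none. These summed to 109.3 to 310.5 CPM at day 0, 182.3 to 494.4 at day 3 and 239.1 to 462.5 at day 6. At day 0 the adipocyte marker Pparg had 99.5 to 412.6 CPM and the osteoblast marker Runx2 had 246.8 to 334.2. The fibroblast markers Col1a1, Col1a2, Dcn and Pdgfra summed to 0 to 103.5 CPM at day 0. No circRNA of the 4 endothelial or the 4 macrophage markers was listed, and no marker gene of any of these cell types hosted a circRNA listed only at day 0. In RNA from a whole culture, fewer cells that make a circRNA and fewer copies per cell cannot be told apart.

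The back-splice junction is what identifies a circRNA, and junctions are shown for hosts in which circles listed only at day 0 stand beside circles of the same host that were listed later. Each sequence was read from the annotated transcript (GENCODE M21, mouse build GRCm38, the build of the coordinates): the last 30 bases of the downstream exon followed by the first 30 of the upstream exon, with capitals for the 8 bases on either side of the join. All of these junctions lie within coding exons. Bub1b (ENSMUSG00000040084) encodes the BubR1 kinase of the spindle checkpoint, and Diaph3 (ENSMUSG00000022021) encodes a formin that nucleates actin filaments and acts in cytokinesis.
Bub1b exons 17 to 21, listed only at day 0, chr2:118631759-118638575, plus strand: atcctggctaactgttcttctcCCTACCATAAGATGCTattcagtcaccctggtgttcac
Bub1b exons 17 to 19, also listed later, chr2:118631759-118635277, plus strand: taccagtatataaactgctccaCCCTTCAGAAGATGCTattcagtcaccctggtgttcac
Diaph3 exons 22 to 24, listed only at day 0, chr14:86828992-86852201, minus strand: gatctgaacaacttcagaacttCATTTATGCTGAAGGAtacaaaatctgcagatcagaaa
Diaph3 exons 18 to 20, listed only at day 0, chr14:86905937-86918864, minus strand: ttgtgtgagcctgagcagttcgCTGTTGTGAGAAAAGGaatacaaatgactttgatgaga
Diaph3 exons 18 to 25, listed only at day 0, chr14:86810336-86918864, minus strand: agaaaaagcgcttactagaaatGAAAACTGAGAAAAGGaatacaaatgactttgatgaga
Diaph3 exons 23 to 25, also listed later, chr14:86810336-86835101, minus strand: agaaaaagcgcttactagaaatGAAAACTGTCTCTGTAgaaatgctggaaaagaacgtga
The Bub1b circles share all bases after the join, so they begin at the same exon and differ in the donor. In Diaph3 the circle of exons 18 to 25 ends at the donor that the abundant circle of exons 23 to 25 also uses, and both have the same bases before the join.

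Further sets come from Racgap1 (ENSMUSG00000023015), a subunit of the centralspindlin complex of the dividing cell's midzone, from Rad18 (ENSMUSG00000030254), the ubiquitin ligase that modifies PCNA at stalled replication forks, and from Haus6 (ENSMUSG00000038047), a subunit of the augmin complex of the mitotic spindle.
Racgap1 exons 4 to 11, listed only at day 0, chr15:99628634-99639819, minus strand: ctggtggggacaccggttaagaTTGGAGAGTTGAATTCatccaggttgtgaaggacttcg
Racgap1 exons 5 to 10, listed only at day 0, chr15:99631109-99637774, minus strand: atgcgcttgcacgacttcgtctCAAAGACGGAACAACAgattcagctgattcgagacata
Racgap1 exons 5 to 16, listed only at day 0, chr15:99623569-99637774, minus strand: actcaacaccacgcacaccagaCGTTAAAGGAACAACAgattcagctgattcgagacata
Racgap1 exons 5 to 11, also listed later, chr15:99628634-99637774, minus strand: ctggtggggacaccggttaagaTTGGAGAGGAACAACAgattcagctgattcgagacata
Rad18 exons 5 to 11, listed only at day 0, chr6:112644588-112681676, minus strand: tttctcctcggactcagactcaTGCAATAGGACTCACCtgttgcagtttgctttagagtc
Rad18 exons 5 to 6, listed only at day 0, chr6:112679917-112681676, minus strand: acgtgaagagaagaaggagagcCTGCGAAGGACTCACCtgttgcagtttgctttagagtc
Rad18 exons 5 to 9, also listed later, chr6:112665278-112681676, minus strand: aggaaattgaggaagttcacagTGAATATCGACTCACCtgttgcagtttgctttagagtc
Haus6 exons 5 to 9, listed only at day 0, chr4:86595363-86602963, minus strand: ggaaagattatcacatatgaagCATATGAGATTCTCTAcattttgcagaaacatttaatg
Haus6 exons 5 to 8, listed only at day 0, chr4:86599259-86602963, minus strand: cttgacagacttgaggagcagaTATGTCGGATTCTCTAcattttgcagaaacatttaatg
All 3 Rad18 circles and both Haus6 circles start at exon 5, with identical bases after the join. The Rad18 circle of exons 5 to 9 was listed in day 0 replicate 3 (26 reads) and day 6 replicate 3 (32 reads) alone. For Haus6 no junction of a circle listed later is printed. Racgap1 exons 4 to 11 and 5 to 11 have the same bases before the join, so one was seen only at day 0 and the other was also counted in a day 6 library although they end at the same donor.

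Detection of the 706 circRNAs across the day 0 libraries was uneven. All 3 libraries held 69 of them. Replicates 1 and 3 alone held 321, replicates 2 and 3 alone held 180, and replicates 1 and 2 alone held 136. By library, 526, 385 and 570 of the 706 were listed in replicates 1, 2 and 3, which is 5.33%, 5.16% and 5.13% of the circRNAs each library listed. They took 2.51%, 2.31% and 2.04% of the reads (7972, 5322 and 5380 reads). Most were therefore supported by few reads in each library.

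Their levels were low. Over the 3 day 0 libraries a circRNA of this set had 4 to 125 reads, with a median of 23. The mean day 0 level was 4.74 to 150.0 CPM (back-splice reads scaled to the library total adjusted by TMM), with a median of 27.3 CPM. The median was 55.8 CPM for the 69 seen in all 3 libraries and 25.9 CPM for the 637 seen in a pair of them. A median of 60.2 CPM was found for the 5246 circRNAs listed in at least 2 day 0 libraries and also later.

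A zero does not show absence. The smallest count above 0 in the table is 2, and a count of 0 allows up to 3 reads in a library, or on average 9.65 CPM at day 3 and 10.9 CPM at day 6 (counting error only). Because no count of 1 occurs, a 0 may also stand for 1 read. The limits would then be higher, and the folds drawn from them smaller. Of the 706, 16 had a day 0 mean under the day 3 limit and 21 under the day 6 limit. Just outside the rule lay 8680 circRNAs listed in a single day 0 library and on no later day, with a median of 9 reads. Another 654 were listed in at least 2 day 0 libraries and in 1 later library, with a median of 10 reads there, and 14 of these had 2 reads there. Just inside, 44 circRNAs had 2 reads in the lowest library that listed them.

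The same rule turned to the other days found 582 circRNAs listed only at day 3 and 483 listed only at day 6. Those seen in all 3 libraries of their day numbered 69, 38 and 36 at days 0, 3 and 6. As a share of the circRNAs listed in at least 2 libraries of the day, the sets were 11.9% of 5952 at day 0, 8.89% of 6543 at day 3 and 8.22% of 5876 at day 6. The number at day 0 depended on how many libraries listed a circle. The count at day 0 fell to 249, 390 and 205 when day 0 replicate 1, 2 or 3 was left out and both of the others had to list the circle.

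The circRNA with the highest day 0 mean was the Bub1b circle of exons 17 to 21 at chr2:118631759-118638575. It had 46, 65 and 14 reads in the day 0 libraries, or 150.0 CPM ± 97.6 (SD, n = 3). Against the limits for 0 reads this is at least 15.6-fold lower at day 3 and at least 13.7-fold lower at day 6, or 10.3-fold and 9.13-fold without day 0 replicate 2. The Diaph3 circle of exons 22 to 24 had 31, 13 and 37 reads (98.1 CPM ± 48.6). Both were seen in every day 0 library, with replicate 3 lowest for Bub1b and highest for Diaph3.

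Of the 15 with the highest mean, 11 were listed in all 3 day 0 libraries. The Anxa3 circle, from the gene of a calcium-binding annexin, had 37, 43 and 16 reads. That of Pstpip2, which encodes a membrane-bending F-BAR protein, had 37, 21 and 33. The Madd circle, from a gene for an exchange factor of Rab3 GTPases, had 36, 24 and 23 reads and the closest agreement of the 15 (98.8 CPM ± 11.8). No day 0 library held fewer than 16 reads of any of these 3 circles.

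Other circles of the 15 differed widely between libraries. Tasp1 encodes a protease that cleaves MLL proteins, and its circle of exons 2 to 13, the longest span of the set at 199798 bp, had 0, 83 and 15 reads. The Rad18 circle of exons 5 to 11 had 11, 0 and 57 reads. The circle of Clk2, a kinase of splicing factors, had 58, 24 and 0, and that of Extl3, a heparan sulfate glycosyltransferase, had 58, 0 and 22. For these 4 the day 0 SD was about as large as the mean or larger, at 170.2 CPM against 126.6 CPM for Tasp1, 122.3 against 87.1 for Rad18, 90.6 against 91.2 for Clk2 and 90.6 against 89.6 for Extl3.

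The remaining 6 were all listed in every day 0 library. Aurka encodes the Aurora A mitotic kinase, and its circle of exons 2 and 3 had 36, 31 and 11 reads. Zkscan6, a zinc finger gene, had 35, 42 and 3. Tollip, an adaptor of endosomal sorting and Toll-like receptor signalling, had 35, 13 and 29. The circles of Commd1 (31, 37 and 7 reads), which acts in endosomal sorting and copper homeostasis, of Myo19 (30, 35 and 9), a myosin of mitochondria, and of Ctsk (35, 30 and 9), the protease cathepsin K, were each lowest in replicate 3.

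**Figure D1:**
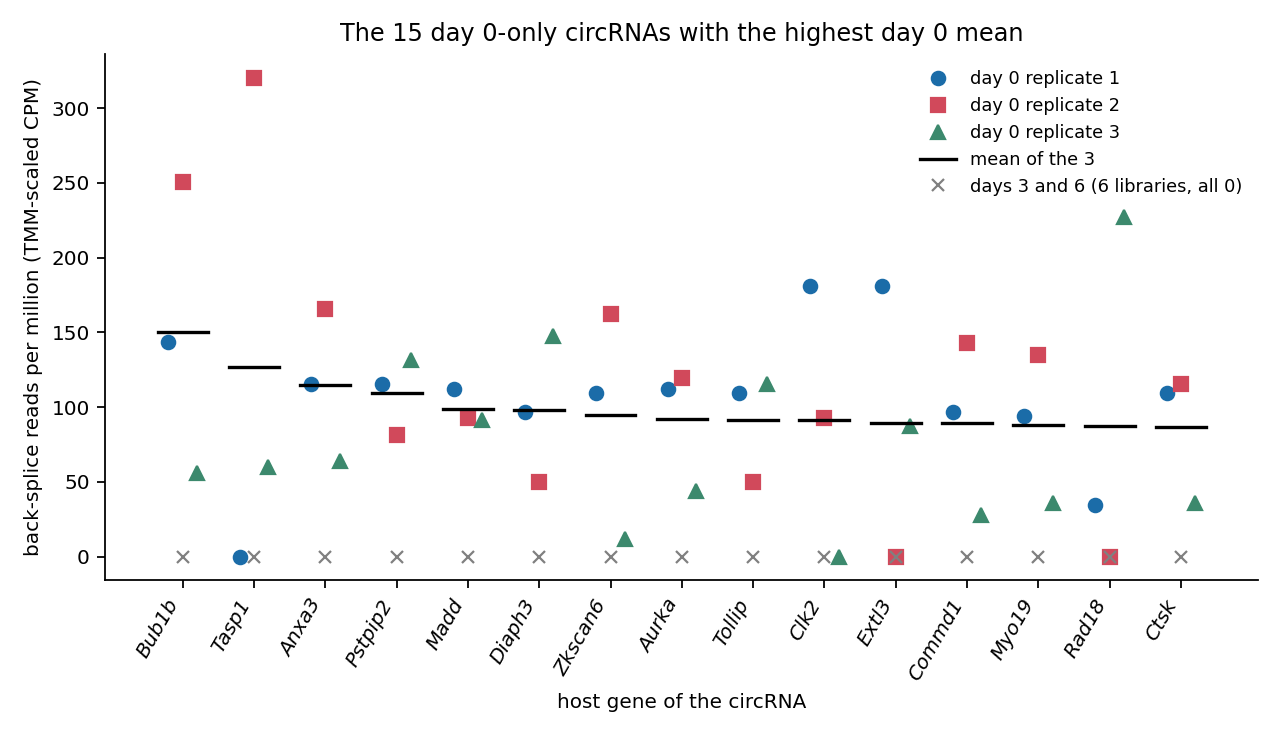
Level of the 15 circRNAs with the highest day 0 mean, in TMM-scaled CPM (vertical axis), by host gene. Coloured symbols are the 3 day 0 libraries, black lines their means, and crosses the 6 later libraries, which are all 0 by the rule. Bub1b has the highest mean at 150.0, and Tasp1 the widest spread.

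Of the 10 functional gene lists that were counted, that of the cell cycle held the most circles. Of 706 circRNAs, 40 (5.67%) came from 27 genes of a list of cell cycle and mitosis genes. The same list held 0.859% of the circRNAs listed only at day 3 (5 of 582), 0.207% of those listed only at day 6 (1 of 483), 1.83% of those listed at day 0 and later and 1.71% of the whole table. Among list genes with any circRNA in the table, 27 of 105 (25.7%) hosted a circle of the day 0 set, against 613 of 6943 (8.83%) over all hosts. These are counts of circRNAs and were not tested.

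The 40 circles of cell cycle genes held 697, 449 and 471 reads in the day 0 libraries, and 12 of them were seen in all 3. Their mean levels ran from 15.2 to 150.0 CPM with a median of 45.3 CPM. Beside Bub1b, Aurka and Diaph3 they included Ttk, a checkpoint kinase (56, 0 and 5 reads), Kif15, a spindle motor (28, 0 and 35 reads for exons 2 to 5), and Mybl2, a transcription factor of S phase and mitotic genes (11, 24 and 21). Mki67, the gene of the Ki-67 proliferation antigen, contributed a circle of exons 7 to 10 with 20, 11 and 19 reads, and the motor gene Kif4 one of exons 3 to 6 with 21, 10 and 18. Ncapg2, a condensin II subunit, had 14, 15 and 11 reads in the day 0 libraries (48.5 CPM ± 8.13). Of these 6 genes outside the leading 15, Mybl2, Mki67, Kif4 and Ncapg2 had circles listed in every day 0 library. The 6 were picked for their roles after their values were seen.

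DNA replication and repair genes hosted 27 circles (3.82%) from 22 genes, against 0.859% at day 3 only, 0.828% at day 6 only, 1.24% at day 0 and later and 1.31% of the table. Of 94 list genes with a circRNA, 22 (23.4%) hosted one. The leading circles were those of Rad18 and of Brip1, a helicase partner of BRCA1, which had 56, 0 and 21 reads (86.2 CPM ± 87.5). Rad18 exons 5 to 11 and Brip1 exons 4 to 9 were thus each missing from replicate 2. Origin, polymerase and checkpoint genes were also present, among them Orc1, Orc5, Mcm5, Pola1, Pola2, Rfc1, Timeless and Topbp1.

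Leaving out day 0 replicates 1, 2 and 3 in turn left 18 of 249, 28 of 390 and 18 of 205 circles in cell cycle genes (7.23%, 7.18% and 8.78%). For DNA replication and repair genes it left 10, 17 and 8 circles (4.02%, 4.36% and 3.90%). The share of both lists stayed above the share in the whole table in each case, while the number of circles fell.

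The other lists held shares of the day 0 set closer to those of the table. RNA splicing and RNA binding genes hosted 19 circles (2.69% against 2.36% of the table), led by Prpf8, a core spliceosome protein with 14, 14 and 21 reads, and the splicing factor gene Srsf4 with 44, 0 and 10. Ubiquitin system genes hosted 15 (2.12% against 2.83%), with Dcaf8 (39, 0 and 7 reads) and Mdm2, the ligase of p53 (0, 10 and 20), at the top. Chromatin enzymes hosted 12 (1.70% against 2.55%), led by the remodeller Chd7 (14, 33 and 7) and the histone demethylase Kdm5a (10, 23 and 15). Extracellular matrix and adhesion genes hosted 13 (1.84% against 2.68%), led by the integrin gene Itgav (0, 12 and 28 reads) and the hyaluronan receptor gene Cd44 (0, 17 and 17).

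Sarcomere genes gave 1 circle, from Pdlim7 (0, 28 and 8 reads), or 0.142% of the set. The sarcomere share was 0.191% of the circRNAs listed at day 0 and later, 0.687% of those listed only at day 3, 2.28% of those listed only at day 6 and 0.660% of the table. Myogenic regulators and fusion genes gave 8 (1.13% against 1.37% of the table), from 8 of the 45 list genes with a circRNA (17.8%, against 8.83% over all hosts), led by the adhesion gene Kirrel (28, 10 and 0 reads) and the transcription factor gene Nfix (13, 13 and 0). The list of quiescent or reserve cell genes gave 1, from Notch3 (12, 11 and 0), and the list of adipocyte, osteoblast and fibroblast markers gave 0, with 6 of its genes present in the table.

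Counted by host instead of by circle, 10.6% of the chromatin genes with a circRNA (10 of 94), 13.0% of the ubiquitin system genes (14 of 108), 12.5% of the splicing and RNA binding genes (15 of 120) and 13.0% of the matrix and adhesion genes (12 of 92) hosted a circle of the day 0 set. The share was 2.56% for sarcomere genes (1 of 39). These stand against 8.83% over all hosts, so the lists rank differently by hosts than by circles.

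**Figure D2:**
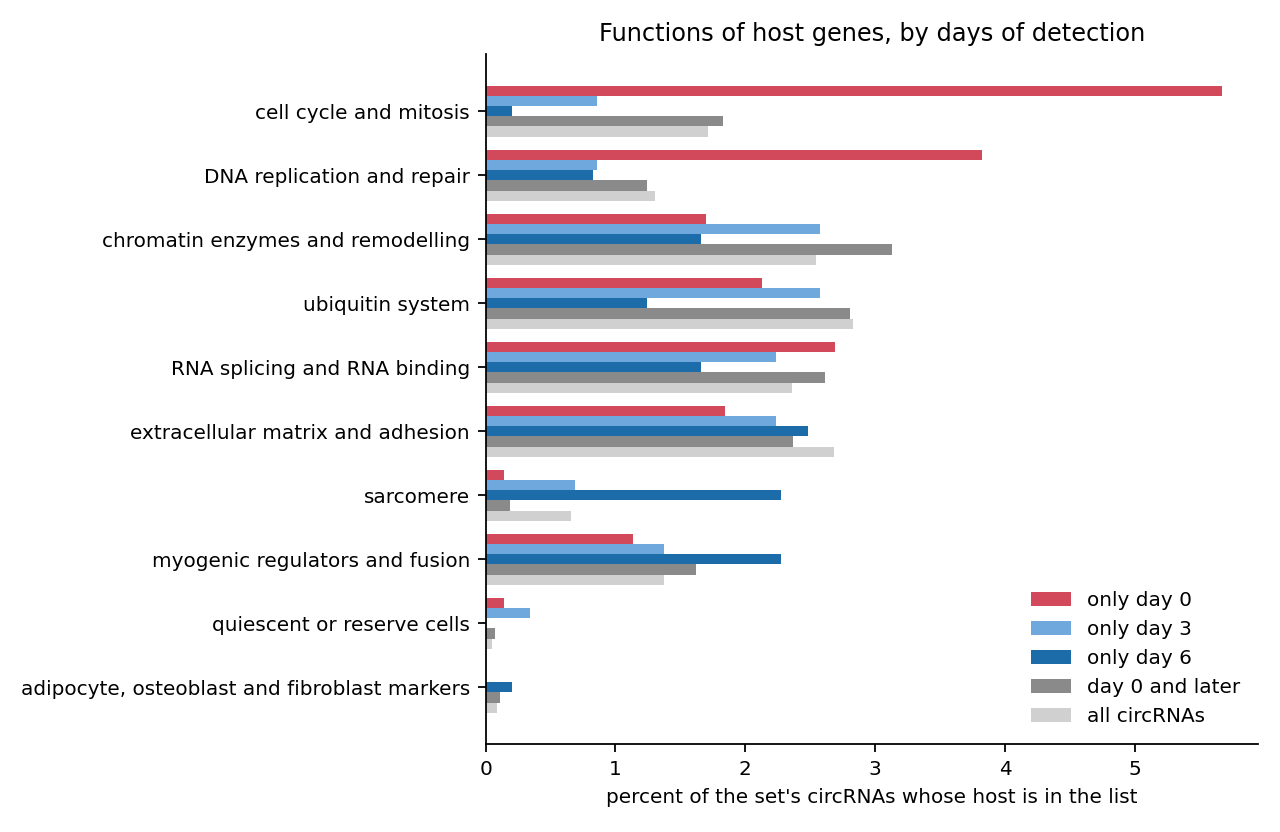
Percent of the circRNAs of each set (horizontal axis) whose host gene is in each of 10 functional lists, for circRNAs listed only at day 0, only at day 3, only at day 6, at day 0 and later, and all circRNAs. The longest bars are those of cell cycle (5.67%) and DNA replication and repair genes (3.82%) in the day 0 set.

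The 706 circles came from 613 host genes and 7 intergenic loci. One circle came from each of 540 hosts, a pair from each of 63, and 3 or more from each of 10. Samd4, which encodes a translational repressor of the Smaug family, hosted 5, all annotated as intronic and with 12 to 49 reads each over day 0. Among them, chr14:46896018-46917051 and chr14:46896023-46917051 have the same end and nearby starts. Whether they are 1 junction was not tested. Diaph3 hosted 4, and Racgap1, Pvt1 and Armc8 were among the hosts of 3. Pvt1 is a long noncoding RNA gene next to Myc, and its circles had 45, 0 and 4 reads, 20, 7 and 6 reads, and 17, 0 and 14 reads. Armc8 encodes a subunit of the CTLH ubiquitin ligase, and its circles had 30, 14 and 0 reads, 14, 16 and 0 reads, and 20, 0 and 5 reads.

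Most hosts continued to give circular reads. In 550 of 613 hosts (89.7%) another circRNA of the gene was listed at day 3 or 6, with a median of 5 such circles over all hosts and up to 67 in Arhgap10. The circles listed only at day 0 held a median of 27.0% of their host's day 0 reads, over 50% in 180 hosts and all of them in 54. No other circle was listed later in 63 hosts (10.3%): 25 had no other circle in the table and 38 had others at day 0 only. Aurka, Tollip, Commd1 and Ctsk of the leading 15 were among these 63, as were the DNA replication genes Orc1 and Pola1. For the sets listed only at day 3 and only at day 6, 33 of 502 and 29 of 404 hosts had no other circle on another day. Counted by circle, the host had another circle on another day for 90.6%, 93.9% and 93.8% of the day 0, day 3 and day 6 sets.

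Many of the circles shared a splice site with a circle that was listed later. Of the 699 circles with a host gene, 511 (73.1%) had an end in common with a circle of the host that was listed at day 3 or 6. The shared end was the start alone, the acceptor in the direction of transcription, in 219, the donor alone in 132 and both, with different circles, in 160. For circRNAs listed only at day 3 the share with a common end was 73.4%, and it was 75.0% for those listed only at day 6. The start alone and the donor alone were equally frequent there, with 134 and 134 circles at day 3 and 112 and 112 at day 6.

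Tasp1 and Pvt1 show such relatives with high counts. The Tasp1 circle of exons 2 to 4, which starts at the same acceptor as the circle seen only at day 0, had 516, 447 and 477 reads at day 0, 338, 267 and 371 at day 3 and 246, 267 and 513 at day 6. The Pvt1 circle of exon 2 had 419, 492 and 633 reads at day 0, 347, 215 and 209 at day 3 and 70, 191 and 179 at day 6. Neither fell to 0 in any library. In Diaph3 the circle of exons 23 to 25 had 319, 236 and 369 reads at day 0, 141, 89 and 109 at day 3 and 93, 35 and 71 at day 6.

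**Figure D3:**
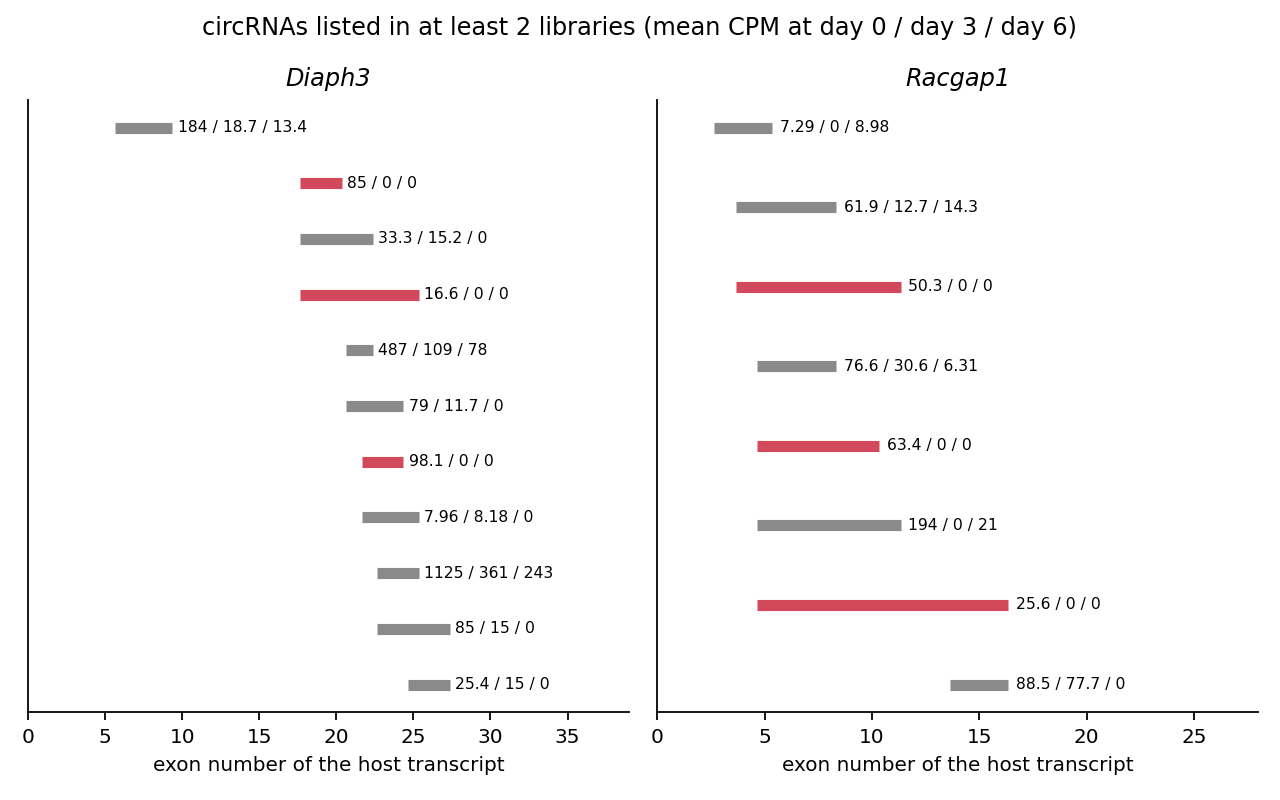
Exons spanned by the circles of Diaph3 and Racgap1 that were listed in at least 2 libraries with both ends at exon edges (horizontal axis, exon number), in red where listed only at day 0 and in grey otherwise. Numbers beside the bars are mean CPM at day 0, day 3 and day 6. The Diaph3 circle of exons 23 to 25 is the most abundant, at 1125, 361 and 243 CPM.

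By type, the table annotates 642 of the 706 as exonic (90.9%), 57 as intronic (8.07%) and 7 as intergenic (0.992%). Over the whole table the shares were 87.6%, 9.96% and 2.48%. They were 95.1%, 4.02% and 0.839% for circles listed at day 0 and later. Intergenic circles made up 3.95% of those listed only at day 3 and 3.11% of those listed only at day 6. The intronic circle with the highest mean was that of Samd4 at chr14:46896018-46917051 with 12, 0 and 37 reads, followed by Sema5a (0, 26 and 16) and Arhgap22 (24, 0 and 22). The leading intergenic circle lay at chr14:76818184-76825251 and had 24, 0 and 24 reads. Each of these was absent from a day 0 library, as were 637 of the 706. None of the 7 intergenic and 5 of the 57 intronic circles were seen in all 3, against 64 of the 642 exonic ones.

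Few of the circles were in the circBase catalogue as matched by the depositors. A circBase identifier was given for 7 (0.992%), from Ctbp2, Eif3i, Fgfr2, Gtdc1, Nrip1, Rad18 and Yes1. The share was 12.6% for circRNAs listed at day 0 and later, 2.23% for those listed only at day 3, 2.07% for those listed only at day 6 and 2.72% for the table. The Rad18 circle of exons 5 to 11, printed above, is the only one of the 7 among the leading 15. Catalogued circles were thus few in all 3 single-day sets, of which the other two had median levels of 21.4 CPM at day 3 and 24.2 CPM at day 6.

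In size and structure the medians lay close to those of the table. Both ends met annotated exon edges in 84.0%, against 82.5% and 87.6% of the day 3 and day 6 sets and 78.7% of the table. The median genomic span was 9418 bp (9760 bp in the table). For the 580 circles that fit an annotated transcript, the median was 5 exons and 591 spliced bases (4 exons and 585 bases in the table), and the flanking introns had medians of 4992 bp upstream and 3459 bp downstream (4936 and 3496 bp in the table). The introns of the 5246 circles listed at day 0 and later were longer, with medians of 9454 and 6732 bp. The most exons, 25, were in a circle of Ddb1, a subunit of a DNA damage-binding ubiquitin ligase.

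The start exon differed between the sets. A start at the second exon of the transcript was found in 212 of 580 circles (36.6%), against 22.5% of the circles listed only at day 3, 17.8% of those listed only at day 6 and 24.9% of the table. Circles listed at day 0 and later were close to the day 0 set, at 34.8%. The share in the day 0 set was 32.5%, 34.5% and 39.8% without day 0 replicates 1, 2 and 3.

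The libraries were compared on this share after the 706 circles had been left out. The other circles started at exon 2 in 30.4%, 32.4% and 30.8% of cases at day 0, in 28.0%, 28.0% and 27.9% at day 3 and in 27.8%, 27.5% and 26.6% at day 6. The means were 31.2% ± 1.05 (SD, n = 3), 28.0% ± 0.0463 and 27.3% ± 0.645. No later library reached the lowest day 0 library. In an exact two-sided permutation test the 3 day 0 libraries differed from the 6 later ones with p = 0.0238, and each single day from day 0 with p = 0.1, both the smallest values these group sizes allow. Circles listed in 1 day 0 library and on no later day (8680 in the table) were not left out of these shares. Circles listed on a single later day remained as well. The part of either in the difference was not tested. Depth differed too: at 230183, 263833 and 317159 reads the day 0 shares were 32.4%, 30.8% and 30.4%. At 208787, 243471 and 443955 reads the day 6 shares were 27.8%, 27.5% and 26.6%, while the day 3 shares hardly differed. The part of depth was not tested. The start exon was not among the features planned for comparison, so this test was not a planned one.

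**Figure D4:**
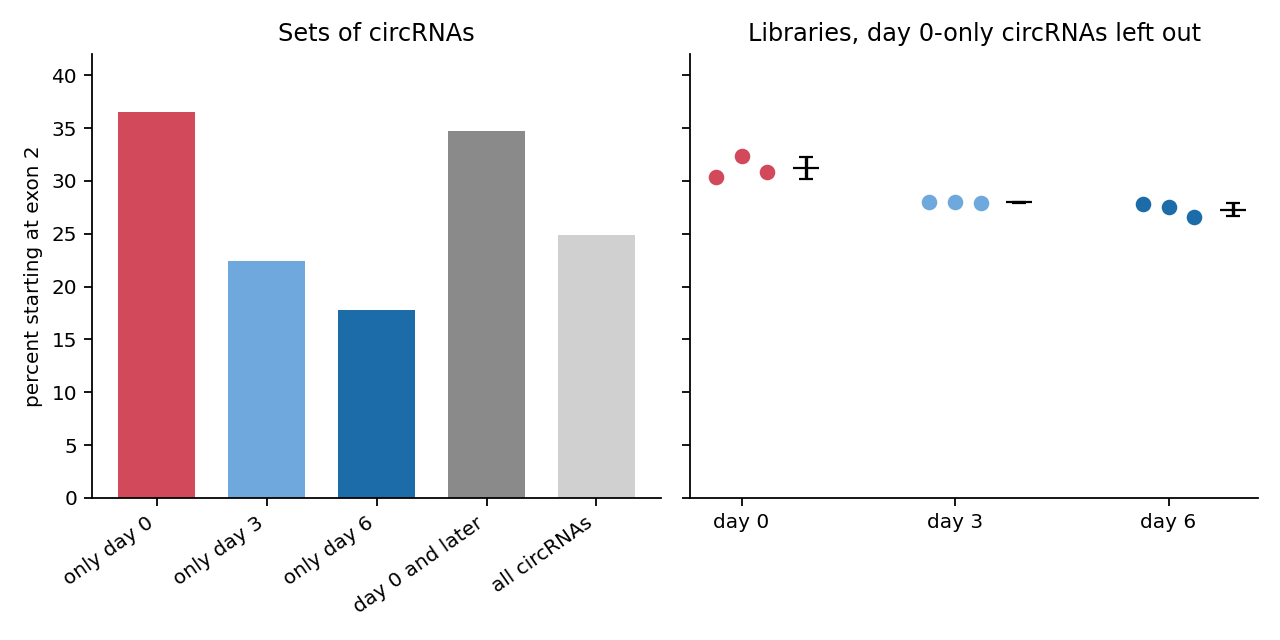
Percent of annotated circRNAs that start at exon 2 of the host transcript (vertical axis, from 0). Left, 5 sets of circRNAs. Right, libraries without the 706 circles of the day 0 set. Points are libraries and bars to their right are mean ± SD (n = 3). Day 0 libraries lie at 30.4% to 32.4%, above the 6 later libraries at 26.6% to 28.0%.

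Whether the host genes also lost their other circles was asked with the reads of circles outside the 706. Counts were summed per host gene without the 706 circles and compared by edgeR's quasi-likelihood test over all 4045 hosts that passed a filter on low counts, with Benjamini-Hochberg adjustment and a threshold of 0.05. Of the 613 hosts, 487 passed. CPM of these sums used TMM factors of their own, so they are not on the same scale as CPM of single circles. Leaving out the 706 lowers the day 0 sums. Circles listed in 1 day 0 library and on no later day (8680 in the table) were not left out, so reads seen only at day 0 remain in the sums. Both comparisons with day 0 share the day 0 libraries with each other and with the rule.

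At day 3, 13 of the 487 hosts were lower than at day 0 (2.67%, against 0.841% of all hosts tested) and 7 were higher (1.44% against 2.94%). At day 6, 36 were lower (7.39% against 2.05%) and 13 were higher (2.67% against 3.91%). The median log2 fold change of the 487 was -0.23 at day 3 and -0.43 at day 6, against 0.00 and -0.09 over all hosts tested. Values below 0 were found for 61.4% and 65.1% of the 487, against 49.8% and 52.6% of all. Between day 3 and day 6 only Igsf5 differed, and it was lower (0.205% of the 487, against 0.0494% of all hosts tested); 0 were higher by edgeR, against 0.0247% of all, with 12 of the 487 at an unadjusted p under 0.05 and 0 by DESeq2.

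**Figure D5:**
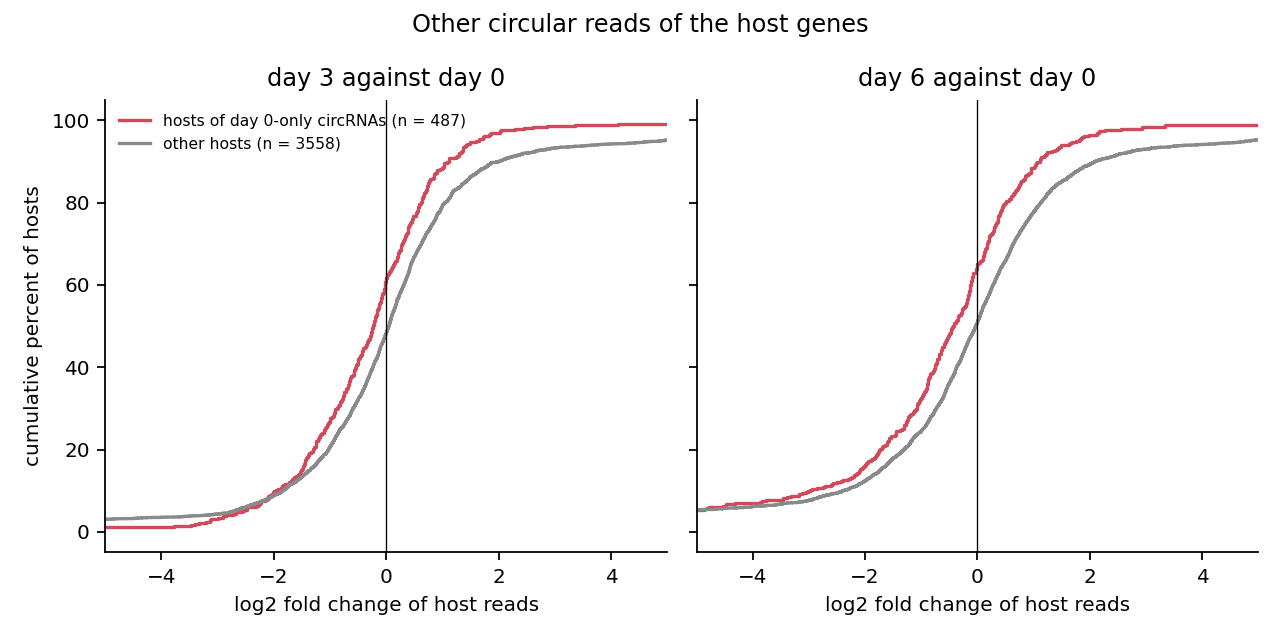
Cumulative percent of host genes (vertical axis) by log2 fold change of their circular reads without the 706 circles (horizontal axis). Lines are 487 hosts of these circles (red) and 3558 other hosts (grey), at day 3 and day 6 against day 0. The axis is cut at -5 and 5. The red line lies to the left around 0, with 61.4% and 65.1% of the hosts below 0.

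Among the hosts that were lower at day 3, Mtbp, an MDM2-binding protein that also acts in origin firing, had 567.3, 454.8 and 785.6 CPM of other circles at day 0 and 77.1, 72.3 and 75.2 CPM at day 3 (log2 fold change -3.00 ± 0.57 SE, adjusted p = 3.0e-04, edgeR). Diaph3 had 2109, 1649 and 2522 CPM at day 0, 684.6, 560.9 and 401.7 at day 3 and 543.0, 207.1 and 285.1 at day 6 (day 3: -1.93 ± 0.29, adjusted p = 4.1e-06, edgeR). Bcat1, the cytosolic branched-chain aminotransferase, fell by 1.74 ± 0.31 and Pvt1 by 1.47 ± 0.23 on the log2 scale (edgeR adjusted p = 9.8e-05 and 9.7e-06). These 4 calls held in every alternative fit that was run.

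The calls for Topbp1, an activator of the ATR checkpoint kinase, and Slc38a10, an amino acid transporter, were less stable. Topbp1 had 428.5, 435.0 and 360.2 CPM at day 0 and 90.0, 48.2 and 0 at day 3 (-3.14 ± 0.87, adjusted p = 0.023, edgeR), and its edgeR adjusted p was 0.0649 without day 0 replicate 1 and 0.102 without day 3 replicate 3. Slc38a10 had a log2 fold change of -2.08 ± 0.57 (adjusted p = 0.023, edgeR), and its edgeR adjusted p was 0.0664 without day 3 replicate 2 and 0.153 without day 3 replicate 3. Neither passed when the fit held the libraries of days 0 and 3 alone, with adjusted p = 0.077 and 0.139.

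At day 6 the hosts named by fitted log2 fold change were Igsf5, Dock8, Timeless, Fanci, Bub1b and Bard1, an order that depends on the prior count where a day is at 0. Igsf5, an immunoglobulin-type junction protein, had 331.9, 114.7 and 360.2 CPM at day 0, 41.8, 86.0 and 92.5 at day 3 and 0 at day 6, which is at least 23.8-fold lower than at day 0 (adjusted p = 4.2e-05, edgeR). Other circles of Bub1b had 431.5, 470.6 and 670.6 CPM at day 0, 154.3, 192.7 and 43.4 at day 3 and 0, 0 and 58.0 at day 6 (-4.53 ± 0.81, adjusted p = 6.5e-05, edgeR). Both calls held in every alternative fit of this comparison. The day 6 against day 3 call of Igsf5 (at least 6.49-fold lower, adjusted p = 0.035, edgeR) did not: it had an adjusted p of 0.133 without day 0 replicate 1, 0.170 without day 0 replicate 3 and 0.0525 without day 6 replicate 3, and of 0.754 in a fit of days 3 and 6 alone.

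The other 4 were lost in part of the fits. Timeless, of the replication fork protection complex, had 141.8, 170.1 and 214.6 CPM at day 0 and 0, 8.45 and 0 at day 6 (-5.87 ± 1.76, adjusted p = 0.034, edgeR), and the edgeR adjusted p was 0.068, 0.0841, 0.146, 0.08 and 0.0985 without day 0 replicates 1, 2 and 3 and day 6 replicates 1 and 3. Fanci, of the Fanconi anaemia pathway, had -4.79 ± 1.25 (adjusted p = 0.010, edgeR; 0.0883 without day 0 replicate 2 and 0.0614 in a fit of days 0 and 6 alone). Bard1, the partner of BRCA1, had -3.86 ± 1.10 (adjusted p = 0.022, edgeR; 0.285 by DESeq2 and 0.109 in a fit of days 0 and 6 alone). Dock8, an exchange factor of Cdc42, was at least 10.7-fold lower (adjusted p = 0.036, edgeR), with 9.05, 288.7 and 65.2 CPM at day 0. Without day 0 replicate 2 this bound was 3.28-fold. Its edgeR adjusted p was 0.382 without day 0 replicate 2, and 0.0579, 0.0659 and 0.0814 without day 6 replicates 1, 2 and 3. It was 0.0927 with the replicate number as a block and 0.0887 with all circRNAs listed on 1 day only left out.

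Other circles of some hosts rose. Dclk1, a microtubule-associated kinase, had 72.4, 237.3 and 206.9 CPM at day 0, 822.8, 967.0 and 1014 at day 3 and 1291, 1560 and 1066 at day 6. Its log2 fold changes were 2.45 ± 0.32 and 2.93 ± 0.33 (edgeR adjusted p = 2.6e-07 and 2.2e-09). Patj, a cell polarity scaffold, rose by 1.80 ± 0.37 and 2.46 ± 0.37, and Ablim1, an actin-binding LIM protein, by 1.35 ± 0.24 and 1.80 ± 0.25 (edgeR adjusted p from 3.2e-07 to 7.2e-04). Every later library of these 3 genes lay above every day 0 library.

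At day 3 Mkln1 (1.11 ± 0.23), which encodes the CTLH subunit muskelin, Arhgap10 (0.70 ± 0.14) and Nfix (0.64 ± 0.13), a factor of the fetal muscle programme, were also higher (edgeR adjusted p = 8.8e-04, 3.8e-04 and 4.5e-04). At day 6 Supt3, of the SAGA complex, was higher by 1.44 ± 0.32 (adjusted p = 0.0021, edgeR). Myof, the fusion protein myoferlin, was higher by 1.31 ± 0.34 (adjusted p = 0.0098, edgeR). Its edgeR adjusted p was 0.0654 without day 0 replicate 3 and 0.0521 with all circRNAs listed on 1 day only left out. Rftn2, a raft protein, was higher by 1.85 ± 0.50 (adjusted p = 0.013, edgeR, and 0.0886 without day 0 replicate 1).

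Among hosts in the cell cycle list, 21 of the 27 could be tested on their other circles. At day 6, 8 were lower, namely Bub1b, Cep192, Cit, Ckap5, Diaph3, Mtbp, Racgap1 and Zwilch, and 20 of the 21 log2 fold changes were below 0. Over all hosts tested, 2.05% were lower at day 6 and 52.6% were below 0. At day 3, Cit, Diaph3 and Mtbp were lower (0.841% of all hosts tested). Over the whole list, host or not, 14 of 61 tested genes were lower at day 6 and 6 at day 3, with a median log2 fold change of -2.03 and -1.31, against -0.09 and 0.00 over all hosts tested. Of DNA replication and repair hosts 16 of 22 could be tested, and Bard1, Fanci, Timeless and Topbp1 were lower at day 6. Of 61 tested genes of that list, 6 were lower and 1 was higher at day 6 (median -1.46), the latter being Rad52, a recombination protein. Over all hosts tested 2.05% were lower and 3.91% higher at day 6 (median -0.09). At day 3 Topbp1 was lower and Rad52 higher (median -0.77, against 0.00), where 0.841% of all hosts tested were lower and 2.94% higher.

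Single circles of the same hosts were tested one by one. Over the 8153 circRNAs that passed the filter, 1513 were other circles of these hosts that were listed later. A later listing was not required of the 8153, so the shares below are not of sets chosen alike. At day 3, 6 of the 1513 were lower (0.397%, against 0.270% of all tested) and 9 were higher (0.595% against 1.31%). At day 6, 16 were lower (1.06% against 0.515%) and 17 were higher (1.12% against 1.47%). Between days 3 and 6, circles of Zbtb38, Bub1b and Cd44 were lower (0.198% against 0.0613%) and 0 were higher, with 25 at an unadjusted p under 0.05 and 0 by DESeq2. With DESeq2's size factors in edgeR the day 3 split was 12 lower and 9 higher, with library totals alone 11 and 10, and by DESeq2 38 and 13. Without day 0 replicate 3 it was 1 lower and 19 higher.

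The falls among single circles included relatives of circles described above. The Bub1b circle of exons 17 to 19, whose junction is printed above, had 268.6, 300.8 and 278.6 CPM at day 0, 77.0, 136.7 and 44.0 at day 3 and 0 in all day 6 libraries. It was at least 25.9-fold lower at day 6 than at day 0 (adjusted p = 1.7e-05, edgeR) and at least 7.87-fold lower at day 6 than at day 3 (adjusted p = 0.0094, edgeR; 0.693 in a fit of days 3 and 6 alone). Of the Bub1b circles with printed junctions, that of exons 17 to 21 was thus last seen at day 0 and that of exons 17 to 19 at day 3. Another Bub1b circle with the same acceptor, of exons 17 to 20, was listed only in day 6 replicate 3, with 13 reads.

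Racgap1 exons 5 to 11 had 234.2, 123.4 and 222.9 CPM at day 0, 0 at day 3 and 62.9, 0 and 0 at day 6. It was at least 20.1-fold lower at day 3 (adjusted p = 0.017, edgeR), with an edgeR adjusted p of 0.0714 without day 0 replicate 1, 0.0576 without day 0 replicate 3 and 0.0555 by DESeq2. Diaph3 exons 23 to 25 fell by 1.64 ± 0.38 at day 3 on the log2 scale (adjusted p = 0.0076, edgeR; 0.139 without day 0 replicate 3). The Bcat1 circle of exons 3 to 5 fell by 1.76 ± 0.35 (adjusted p = 7.9e-04, edgeR) and held in every fit.

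At day 6 a circle of Zbtb38, a zinc finger protein that binds methylated DNA, was at 0 after 384.1, 694.1 and 792.1 CPM at day 0 (at least 57.1-fold lower, adjusted p = 8.5e-11, edgeR). Circles of Cd44 and Fanci were at least 20.9-fold lower each (edgeR adjusted p = 1.1e-04 and 4.8e-04), and all 3 held in every fit of this comparison. The Fanci circle of exons 21 to 25 had 162.4, 374.0 and 147.3 CPM at day 0 and 67.4, 77.1 and 29.3 at day 3. The Cd44 circle of exons 12 to 15 was lower at day 6 than at day 3 as well (at least 9.02-fold, adjusted p = 0.014, edgeR; 0.0709 without day 6 replicate 3 and 0.693 in a fit of days 3 and 6 alone).

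Circles of the same hosts also appeared. The Ap3d1 circle of exons 12 to 16, from the gene of the AP-3 delta subunit, was at 0 at day 0 and had 195.8, 298.0 and 102.6 CPM at day 3 and 660.3, 389.5 and 303.0 at day 6, which is at least 18.1-fold and 41.1-fold higher (edgeR adjusted p = 9.9e-08 and 1.7e-09; the day 3 value was 0.0595 in a fit of days 0 and 3 alone). The Arhgap10 circle of exons 14 to 19 rose by 1.45 ± 0.22 and the Dclk1 circle of exons 7 to 16 by 2.36 ± 0.41 at day 3 (edgeR adjusted p = 1.2e-05 and 8.7e-05). In Ap3d1 one circle was therefore listed only at day 0 while another was listed only later. The one listed only at day 0 had 11 reads in total over the day 0 libraries. With so few reads, its later zeros do not show a loss.

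Of the 706 circles themselves, 56 passed the filter on low counts, which they could do only through their day 0 counts. No test of them is given.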

How the data were processed

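The deposited table holds raw counts of back-splice reads for each circRNA in 9 libraries, 3 per day, which the authors made from their reads. BWA and the build GRCm38.p4 (mm10) are named in the submitters' processing notes. How circRNAs were called and filtered is not stated there. Per the labels' protocols, total RNA went through RNAClean XP beads and DNase. The circRNAs and the gene lists were chosen with earlier results of these data known, so no list is independent evidence. Host genes and exon numbers came from GENCODE M21. Named circRNAs are the 15 with the highest mean, the 2 highest of each gene list, the 3 highest intronic and intergenic ones and all of the 5 hosts with most circles (ties by reads). Named hosts and other circles are the 6 largest calls per comparison and direction, and for the leading hosts the circle with the most later reads.

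Tests used edgeR 4.0.16 (R 4.3.3; TMM, filterByExpr with a minimum count of 5 and total of 15, quasi-likelihood F-test, prior count 0.125, all 9 libraries), with DESeq2 1.42.0 as an alternative. SE is the absolute log2 fold change over the square root of F. Folds against groups at 0 use 3 reads per library as the limit, which takes each 0 as 0 reads. Intervals cover counting error only. Only the edgeR fit was tested on simulated counts, for day 3 against day 0. Replicate numbers did not pair the libraries.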

Additional observations from a re-analysis of the deposited data

How the results depend on the processing

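The number of circRNAs listed only at day 0 (706) fell to 69 when all 3 day 0 libraries had to list them and ran from 205 to 847 when single libraries were left out. It was 548 with a minimum of 5 reads, 476 with a minimum of 20 CPM and 720 when up to 2 later reads were allowed. For the other circles summed per host, 20 hosts differed at day 3 and 42 by DESeq2 (11 higher, 31 lower), with 18 to 30 when single libraries were left out. At day 6, 49 hosts differed and 31 in a fit of days 0 and 6 alone, with 44 to 53 when single libraries were left out. Between days 3 and 6, 1 host differed. The count was 0 in a fit of those days alone and 0 when the filter asked for 10 reads, 2 when all circRNAs of 1 day were left out (chosen after seeing the data), and 0 to 3 without single libraries: 0 without day 0 replicate 1 or 3, 3 without day 6 replicate 1 or 2 and 2 without day 6 replicate 3.

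For single circles at day 3, 15 differed, 51 by DESeq2 (13 higher, 38 lower) and 6 in a fit of days 0 and 3 alone. At day 6, 33 differed, 95 by DESeq2 (30 higher, 65 lower) and 15 in a fit of days 0 and 6 alone. Between days 3 and 6, 3 differed, 11 by DESeq2, 6 with no filter, 0 in a fit of those days alone, and 2 to 5 without single libraries, with 5 without any one of day 0 replicates 1, 2 and 3, day 3 replicates 2 and 3 or day 6 replicate 2. The causes were not tested.

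Samples with the same replicate number did not deviate together, so the numbers were not used for pairing. With the replicate number as a block, 26, 51 and 1 hosts and 19, 32 and 3 circles differed at day 3, day 6 and between them. Of 115 alternative values of these counts, 88 were within 1.5 times the main value, and no named log2 fold change changed sign. The split of single circles at day 3 did turn, from 9 higher and 6 lower to more lower than higher by DESeq2 (above), with DESeq2 size factors (9 and 12), with library totals (10 and 11) and in the fit of days 0 and 3 alone (2 and 4). Of 52 named calls, 24 held in every alternative and 28 were lost in at least 1. Splice-site dinucleotides were planned and not run. Depth limits the set: its median circle had 23 reads over 3 libraries.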
